A study of Arabidopsis thaliana with 6 samples.

Results

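The genes described here are 9 monosaccharide transporter genes of Arabidopsis thaliana: SFP1, SFP2, ESL1 (SUGTL2 in the deposited table) and ERD6 of the ERD6-like family, and STP1, STP4, STP7, STP13 and STP14 of the STP family. They were taken by locus from a table of read counts for 33602 genes, and all 9 were in it. They were chosen by their locus with the levels in these same REC and SEC libraries already known, so their own differences between the groups are given as a description, with no p-value. Where it is said how many passed the threshold of the fit over all genes, that count too only describes them. The table covers 6 polyA RNA-seq libraries from flowers at stage 16: 3 of residuum cells (REC), the abscission zone cells left on the receptacle after shedding, and 3 of secession cells (SEC), their counterparts on the separated organs. No group was treated, and all plants shared the reporter proQRT2::nlsGFP-GUS, a nuclear fluorescent protein and beta-glucuronidase under the promoter of the polygalacturonase gene QRT2, by which the protoplasts were sorted. Plants were grown at 22°C with 16 h of light and 8 h of darkness. The sort takes any cell in which that promoter is active. The labels number the libraries without naming separate plants or sorts, so the spread between them may be technical.

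STP proteins are proton symporters of the plasma membrane that bring monosaccharides into the cell from the cell wall space, in which cell wall invertase splits sucrose into glucose and fructose. ERD6-like proteins belong to the same sugar porter superfamily, and those studied so far lie mostly in the vacuole membrane, where they move sugars by facilitated diffusion or by exchange with protons. Many genes of both families respond to drought, wounding, pathogens or senescence.

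Total counts over genes were 13222538 to 17192864 per library, and levels are given as TMM-normalised CPM, counts divided by a scaled library size. Of the genes in the table, 17246 had enough counts to be tested with edgeR's quasi-likelihood test, and 60.8% of them were called at an adjusted p under 0.05, 28.9% higher and 31.9% lower in SEC. REC and SEC libraries did not overlap in 71.5% of genes, 34.6% with SEC above REC and 36.9% with SEC below it. The median log2 fold change over all tested genes, SEC minus REC, was -0.07. Across genes, log2 CPM correlated at 0.914 between REC replicates 1 and 2, and at 0.886 and 0.895 between each of them and replicate 3. In SEC the correlations were 0.957 between replicates 1 and 2, 0.934 between 1 and 3, and 0.953 between 2 and 3. Of 6 abscission zone markers all were detected in both groups, 4 of them (QRT2, IDA, HAE and ADPG2) higher and 2 (HSL2 and KNAT1) lower in SEC. QRT2 itself was at 23.4, 22.6 and 79.6 CPM in REC replicates 1, 2 and 3 and at 1552, 1748 and 1848 CPM in SEC replicates 1, 2 and 3.

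Of the 9 genes, 7 had enough counts for the test. In the fit over all genes 6 of these 7 were past the threshold and higher in SEC, none was lower, and STP4 was not past it, beside 28.9% of all tested genes called higher. Nothing is read from that comparison, because this contrast was known when the genes were chosen. The same 6 genes had SEC libraries that all lay above all REC libraries, beside 34.6% of tested genes without overlap in that direction and 71.5% in either. SFP2 had too few counts to be tested and STP14 had none. SFP1 had enough counts only through its SEC libraries. In bulk samples like these, fewer cells of a type and less RNA per cell cannot be told apart.

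**Figure D1:**
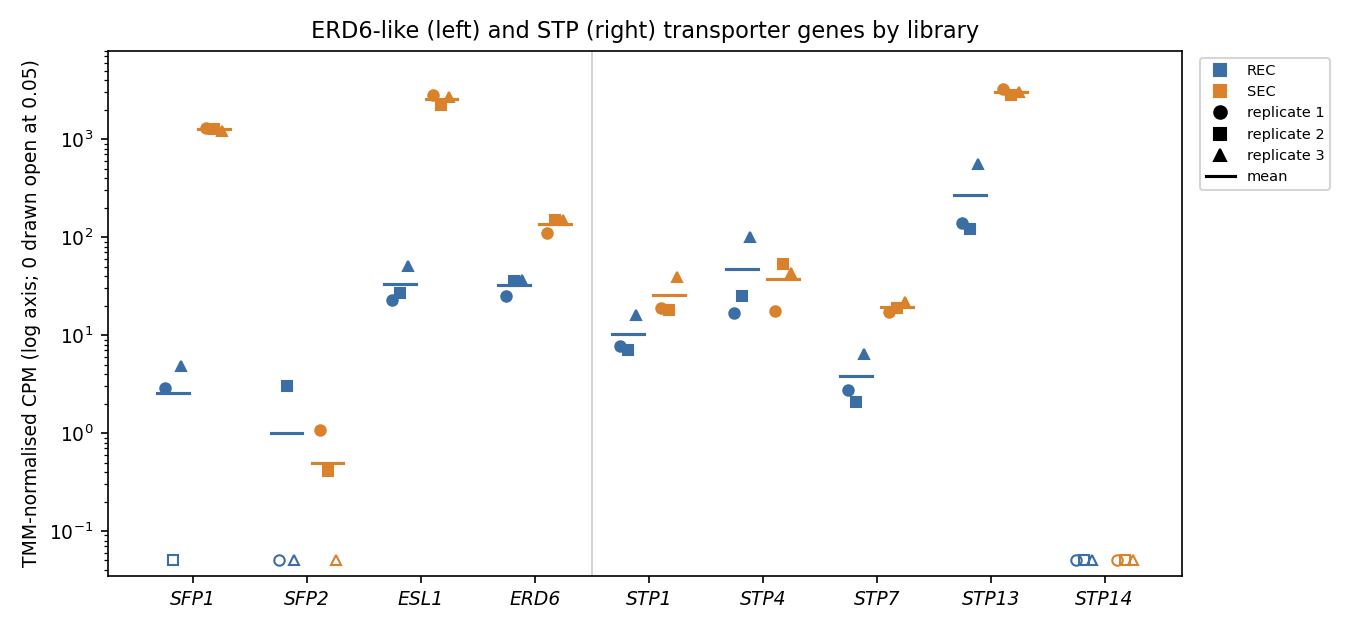
TMM-normalised CPM on a log axis for the 9 transporter genes, with 1 point per library (circle, square and triangle for replicates 1, 2 and 3), a bar at the mean of 3 libraries, and open symbols at 0.05 for libraries with 0 counts. SFP1, ESL1 and STP13 stand at 1205 CPM or more in every SEC library, and the REC triangle, replicate 3, is the highest REC point of every gene except SFP2 and STP14.

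SFP1 (AT5G27350, chromosome 5, 9648667 to 9654426, plus strand) is a sugar porter gene that its annotation links to leaf senescence. It was at 2.90, 0 and 4.82 CPM in REC replicates 1, 2 and 3, which are 48, 0 and 82 counts, and at 1289.6, 1279.9 and 1205 CPM in SEC replicates 1, 2 and 3. All SEC libraries were high and within a narrow range, all REC libraries were at 4.82 CPM or less, and the groups did not overlap. The log2 fold change was 8.94 ± 1.15 (SE, n = 3 per group), a 489.7-fold difference. Leaving out REC replicate 3 gave 9.80, and leaving out REC replicate 2, the library with 0 counts, gave 8.34.

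SFP2 (AT5G27360, chromosome 5, 9657026 to 9662559, plus strand) is its tandem copy, 2522 bases downstream on the same strand, which the annotation describes as not induced in senescence. It had 0, 55 and 0 counts in REC and 12, 6 and 0 counts in SEC, or at most 3.04 CPM in any library. Most of its counts came from REC replicate 2, the groups overlapped, and no fold change is given. The coding sequences of the pair were identical at 87.4% of 1425 aligned positions, and the longest identical run was 56 bases. All stretches of 50 bases taken within single exons of either gene were found at only 1 place in the genome, so reads within an exon can be assigned to one or the other. The run of 56 bases crosses a splice junction, and a spliced read that lay wholly inside it could not be assigned. The last coding exon of each is printed here because it shows how the tandem copies can be told apart. It is coding exon 18 in both genes, 140 bases long, at chr5:9654037-9654176 in SFP1 and chr5:9662286-9662425 in SFP2 (RefSeq, build TAIR10.1, plus strand, 5′ to 3′). The 25 positions at which they differ are in capitals.
SFP1 coding exon: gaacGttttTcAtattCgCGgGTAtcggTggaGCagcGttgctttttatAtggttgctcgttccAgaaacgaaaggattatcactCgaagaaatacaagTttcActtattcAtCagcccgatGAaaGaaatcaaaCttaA
SFP2 coding exon: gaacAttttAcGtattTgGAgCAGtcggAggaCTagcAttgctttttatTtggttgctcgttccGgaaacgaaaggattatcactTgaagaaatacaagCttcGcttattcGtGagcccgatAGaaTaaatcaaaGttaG

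ESL1 (AT1G08920, chromosome 1, 2867259 to 2870656, plus strand) encodes a monosaccharide facilitator of the vacuole membrane known for its induction by drought, salt and abscisic acid. Its levels were 22.6, 26.8 and 50.6 CPM in REC replicates 1, 2 and 3 and 2835, 2234 and 2681 CPM in SEC replicates 1, 2 and 3. Every SEC library was far above every REC library, and REC replicate 3 was the highest of REC. The log2 fold change was 6.28 ± 0.40 (SE, n = 3 per group), or 77.5-fold.

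ERD6 (AT1G08930, chromosome 1, 2873465 to 2877270, plus strand), the gene after which the family is named and one that responds early to dehydration, follows ESL1 on the same strand at a distance of 2554 bases. It was at 25.2, 35.4 and 36.3 CPM in REC and at 110.3, 149.2 and 149.9 CPM in SEC replicates 1, 2 and 3. Replicate 1 was the lowest library of both groups, and the groups did not overlap. Its log2 fold change, 2.08 ± 0.24 (SE, n = 3 per group) or 4.23-fold, had the smallest SE of the 7 fitted genes. Per length of annotated exon, ERD6 and ESL1 had REC levels of 15.5 ± 2.96 and 15.4 ± 6.97 CPM per kb (SD, n = 3), which lay within each other's spread. In SEC they stood at 65.5 ± 10.9 and 1194 ± 144 CPM per kb. Their coding sequences were identical at 69.5% of 1409 aligned positions.

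STP13 (AT5G26340, chromosome 5, 9243511 to 9247066, minus strand) encodes a high-affinity hexose symporter whose expression has been linked to programmed cell death and to defence. It was at 140.0, 121.5 and 554 CPM in REC replicates 1, 2 and 3 and at 3233, 2818 and 3025 CPM in SEC replicates 1, 2 and 3. The REC libraries were uneven, with replicate 3 at 4.24 times the mean of the other two, but even that library was below all SEC libraries. SEC exceeded REC by a log2 fold change of 3.48 ± 0.59 (SE, n = 3 per group), or 11.1-fold, and this was 4.54 without REC replicate 3.

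STP7 (AT4G02050, chromosome 4, 898307 to 900870, minus strand), a symporter of the pentoses arabinose and xylose, was at 2.78, 2.1 and 6.47 CPM in REC and 17.0, 19.0 and 21.9 CPM in SEC replicates 1, 2 and 3. It was low in both groups, which did not overlap. The log2 fold change was 2.35 ± 0.49 (SE, n = 3 per group), or 5.10-fold, and 2.99 without REC replicate 3. In the RefSeq annotation its locus overlaps AT4G02040 and AT4G02060 on the opposite strand, so without a stated strand setting reads of these genes cannot be told apart with certainty.

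STP1 (AT1G11260, chromosome 1, 3777328 to 3780337, plus strand) encodes a hexose symporter that takes up glucose in seedlings and roots. It was at 7.66, 7.12 and 16.1 CPM in REC and 18.9, 18.0 and 39.5 CPM in SEC replicates 1, 2 and 3. Replicate 3 was the highest library of each group, and the highest REC library came close to the lowest SEC library without reaching it. The log2 fold change of 1.31 ± 0.46 (SE, n = 3 per group), or 2.48-fold, ranged from 0.84 to 1.79 when single libraries were left out, the ends being those without SEC replicate 3 and without REC replicate 3. As a description, STP1 was no longer past the threshold under 7 of 16 alternatives, which were upper-quartile scaling, library size alone, a threshold of 0.01, and leaving out REC replicate 1, REC replicate 2, SEC replicate 2 or SEC replicate 3. STP1 overlaps AT1G11270 on the opposite strand.

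STP4 (AT3G19930, chromosome 3, 6934773 to 6937120, plus strand), a hexose symporter gene known to respond to wounding, was at 16.8, 25.3 and 101 CPM in REC and 17.5, 52.6 and 43.1 CPM in SEC replicates 1, 2 and 3. The groups overlapped, and REC replicate 3 was the highest of all 6 libraries. The log2 fold change was -0.33 ± 0.68 (SE, n = 3 per group), and it changed sign to 0.85 without REC replicate 3. STP10, which follows STP4 on the chromosome at 1013 bases, had 5 counts over all 6 libraries.

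STP14 (AT1G77210, chromosome 1, 29008939 to 29012096, minus strand), which transports galactose when expressed in yeast, had 0 counts in all 6 libraries. The limit that a count of 0 allows, 3 counts over a group, is 0.058 CPM in REC and 0.0818 CPM in SEC, and it covers counting error only.

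Over the 7 fitted genes the median log2 fold change was 2.35, beside -0.07 over all tested genes. The ratio of REC replicate 3 to the mean of REC replicates 1 and 2 was 4.79 for STP4, 4.24 for STP13, 3.33 for SFP1, 2.65 for STP7, 2.17 for STP1, 2.05 for ESL1 and 1.20 for ERD6, so every fitted gene leaned the same way in that library. The summed CPM of the 9 genes gave a ratio of 3.50. The same ratio was 0.532 for the summed CPM of 6 mesophyll markers and 0.929 for that of 6 epidermis markers. For the 6 abscission zone markers it was 1.91 in sum and ran from 0.627 for HSL2 to 22.8 for ADPG2 and 37.3 for IDA, which were low in REC. For 5 phloem companion cell markers it was 1.99 in sum, which was mostly NAKR1 (3.07), while it was 0.874 for AHA3, 0.142 for SUC2 and 0 for APL and PP2-A1. The part of the library's make-up in these values was not tested.

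Markers of other cell types also moved with the groups, beside 28.9% of all tested genes called higher and 31.9% called lower. The summed CPM of the 6 mesophyll markers ranged from 959 to 2083 in REC and from 14.1 to 20.9 in SEC, and 5 of the 6 fell in SEC, among them RBCS1A (small subunit of Rubisco; log2 fold change -8.87, -9.83 without SEC replicate 2, edgeR adjusted p = 3.32e-05) and RCA (Rubisco activase; -6.41, edgeR adjusted p = 3.03e-05). For the 6 epidermis markers the ranges were 1596 to 1819 in REC and 2.39 to 12.0 in SEC, and 5 of the 6 fell. They included the lipid transfer protein gene LTP1 (log2 fold change -8.31, -9.36 without SEC replicate 3, edgeR adjusted p = 4.05e-05) and the wax synthesis gene FDH (-7.46, -6.84 without SEC replicate 2, edgeR adjusted p = 0.000326). Over all libraries FDH was 176-fold lower in SEC. With SEC replicate 1 left out, no FDH count remained there, and the bound against 3 counts over SEC was 264-fold. That bound covers counting error only and not the spread between libraries. Phloem markers summed to 38.8 to 100.4 CPM in REC and 6.83 to 10.6 CPM in SEC. Of them only NAKR1 was called, and it was lower by a log2 fold change of -2.79 (edgeR adjusted p = 0.00222), or -2.02 without REC replicate 3. The pollen markers had at most 25.8 CPM in sum in any library. The only one that could be tested, ACA9, a calcium pump gene, rose from 2.73 ± 2.08 to 16.6 ± 10.3 CPM (SD, n = 3; log2 fold change 2.60, edgeR adjusted p = 0.0304), but the call was lost without SEC replicate 2 (2.46, edgeR adjusted p = 0.083), without SEC replicate 3 (2.15, edgeR adjusted p = 0.109), with library size alone (2.07, edgeR adjusted p = 0.0671) and with the replicate block (2.83, edgeR adjusted p = 0.0716; all alternatives 0.00451 to 0.109). The guard cell markers had at most 45.2 CPM in sum, most of it from GORK. GORK was at 10.9 to 39.8 CPM and SLAC1 at 2.05 to 5.11 CPM, with counts in every library. Neither was called (edgeR adjusted p = 0.395 and 0.552). CPK34, of pollen, and MYB60, of guard cells, were at 0 in all and in 4 of 6 libraries. Whether these marker reads came from other cell types or from the abscission zone cells themselves was not tested. Nor was the part of other cells in the transporter values.

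To compare levels between genes, CPM were divided by the length of the annotated exons. In SEC, ESL1 (1194 ± 144 CPM per kb, SD, n = 3) and STP13 (1173 ± 80.3) led and lay within each other's spread. SFP1 followed at 592 ± 21.8 CPM per kb, below both in every library, and then ERD6 at 65.5 ± 10.9. STP4 (15.8 ± 7.63), STP1 (10.3 ± 4.89) and STP7 (8.86 ± 1.13) did not differ beyond their spread, and SFP2 was at 0.227 ± 0.248. In REC the order was different: STP13 was first at 105 ± 94.8 CPM per kb, above STP4 (20.0 ± 19.4) in every library. ERD6 (15.5 ± 2.96) and ESL1 (15.4 ± 6.97) lay within the range of STP4. STP1 (4.14 ± 2.02), STP7 (1.73 ± 1.08), SFP1 (1.21 ± 1.14) and SFP2 (0.468 ± 0.81) came last, and each of the last 3 overlapped its neighbour in this order.

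The STP family has 14 genes and the ERD6-like family 19 genes in the lists used here. Summed over all 33, the level was 213, 199 and 455 CPM per kb in REC replicates 1, 2 and 3 and 3683, 3273 and 3538 CPM per kb in SEC replicates 1, 2 and 3, a ratio of means of 12.1. SFP1, ESL1 and STP13 together made up 37.9 ± 13.0% of that sum in REC and 84.5 ± 1.41% in SEC (SD, n = 3). STP13 took about the same share in both groups, 32.1 ± 13.1% and 33.5 ± 0.454%, with 47.3% in REC replicate 3 and 24.5% in the mean of REC without that library. ESL1 went from 5.42 ± 0.706% to 34.0 ± 2.18% and SFP1 from 0.38 ± 0.336% to 17.0 ± 1.26%. In REC a large share belonged to ERDL6 (AT1G75220), which exports glucose from the vacuole: 24.6 ± 9.22% there and 1.22 ± 0.412% in SEC. ERDL6 overlaps AT1G75210 on the opposite strand, so its counts carry the same uncertainty as those of STP1 and STP7.

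**Figure D2:**
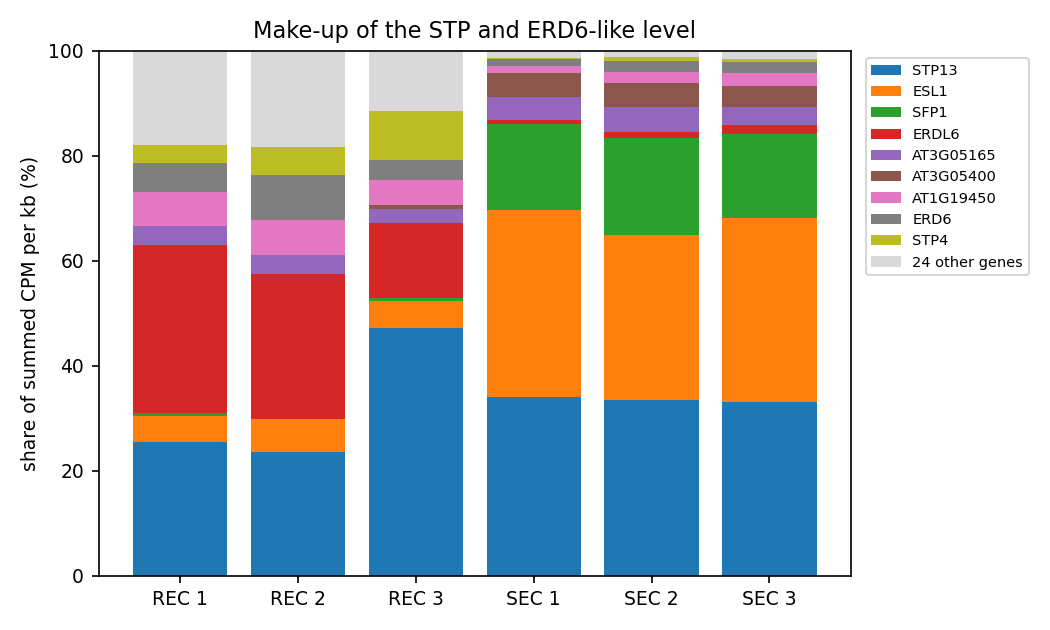
Share of each gene in the summed CPM per kb of exon of the STP and ERD6-like families, as stacked bars that add to 100% in each of the 6 libraries. STP13, ESL1 and SFP1 fill 83.3% to 86.1% of each SEC bar, while ERDL6 takes 14.3% to 31.9% of each REC bar.

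Of all 33 genes of both families, 19 could be fitted, of which 9 were called higher and 1 lower in SEC, or 52.6%, with a median of 1.09 for the log2 fold change. That includes the genes chosen with their levels known. The other 24 genes were tested with p-values adjusted over all genes, but they are what is left once those genes are taken out, so their counts and median do not stand for the families. Of them 12 had too few counts (49 or fewer over all libraries, 3 of them 0), and of the 12 tested, 3 rose in SEC, 1 fell and 8 were not called. These 4 of 12 are 33.3%, beside 60.8% called among all tested genes, and the median log2 fold change was 0.07 beside -0.07. The count of higher genes was 3 without REC replicate 3 as well, and that of lower genes was 2. Of the 9 other STP genes only STP12 could be tested. Its REC level was 3.93 ± 1.05 CPM and its SEC level 8.41 ± 2.46 CPM (SD, n = 3; log2 fold change 1.09 ± 0.47, SE; edgeR adjusted p = 0.0739), and it is named after its values were seen. STP12 overlaps AT4G21470 on the opposite strand.

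**Figure D3:**
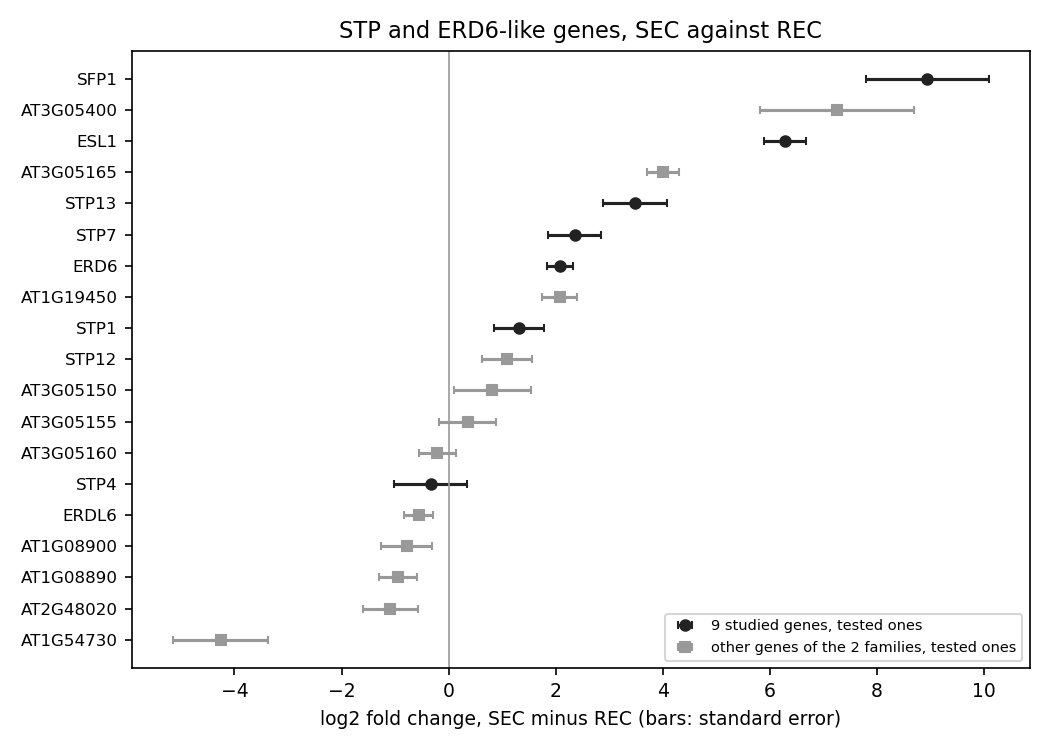
Log2 fold change, SEC minus REC, with its standard error as a bar, for the 19 STP and ERD6-like genes that could be tested, ordered by size, with the 7 fitted genes among the 9 described here in black and the other 12 in grey. The values run from 8.94 for SFP1 to -4.26 for AT1G54730, and 8 of the 12 grey points were not called.

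The 3 higher ones were all ERD6-like. AT3G05400 was at 0, 0 and 5.76 CPM in REC and 317, 283 and 276 CPM in SEC replicates 1, 2 and 3, and rose by 7.25 ± 1.44 on the log2 scale (SE; edgeR adjusted p = 0.00288). It had enough counts for the test only through its SEC libraries. All of its 98 REC counts belonged to replicate 3, and over all libraries the fold was 152. With that library left out, the bound against 3 counts over REC was 3390-fold. It covers counting error only and not the spread between REC libraries. With REC replicate 2 left out, the log2 fold change was 6.65. AT3G05165 was at 19.9, 17.8 and 31.3 CPM in REC and 410, 387 and 309 CPM in SEC, with no overlap, and rose by 4.0 ± 0.29 (SE; edgeR adjusted p = 2.59e-05). AT1G19450, a close relative of ERDL6, rose from 34.5 ± 9.97 to 145 ± 46.4 CPM (SD, n = 3; log2 fold change 2.07 ± 0.32, SE; edgeR adjusted p = 0.0008).

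ERDL6 itself was at 162, 131 and 154 CPM in REC and 69.8, 97.2 and 136 CPM in SEC replicates 1, 2 and 3. The groups overlapped at SEC replicate 3, and the log2 fold change of -0.56 ± 0.27 (SE) was not called (edgeR adjusted p = 0.102). It was called lower under 5 alternatives, among them without SEC replicate 3 (-0.84, edgeR adjusted p = 0.0316; all alternatives 0.00718 to 0.237). AT1G54730, the lower gene, was named after its values were seen. It was at 6.88, 12.0 and 2.65 CPM in REC and 0.444, 0.547 and 0.0929 CPM in SEC, low throughout and without overlap (log2 fold change -4.26 ± 0.89, SE; -3.66 without REC replicate 2; edgeR adjusted p = 0.00372). AT1G54730 had enough counts for the test only through its REC libraries. The remaining ERD6-like genes with a mean of at least 10 CPM in a group were AT1G08890 (-0.95 ± 0.36, edgeR adjusted p = 0.0504), AT2G48020 (-1.09 ± 0.52, adjusted p = 0.0999), AT3G05155 (0.35 ± 0.54, adjusted p = 0.589) and AT3G05160 (-0.21 ± 0.35, adjusted p = 0.625), all as log2 fold changes with SE. With library size alone AT1G08890 (-1.49, edgeR adjusted p = 0.00654) and AT2G48020 (-1.62, edgeR adjusted p = 0.0252) were called lower, and so was AT1G08890 without REC replicate 2 (-1.15, edgeR adjusted p = 0.0349).

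Genes that lie side by side did not share one pattern. On chromosome 1, AT1G08890 and AT1G08900 lie 92 bases apart upstream of the adjacent ESL1 and ERD6, on the same strand. Their levels were 17.9, 13.7 and 27.4 CPM and 4.89, 7.51 and 8.70 CPM in REC, and 10.2, 8.34 and 12.1 CPM and 4.08, 3.14 and 5.02 CPM in SEC. Neither was called, but all SEC libraries of AT1G08890 lay below its REC libraries, and it was called lower under 8 alternatives. ESL1 and ERD6 were higher in SEC as described above. On chromosome 3, AT3G05160 lies 85 bases from AT3G05165 on the same strand, with coding sequences identical at 89.6% of aligned positions and a longest identical run of 215 bases. AT3G05160 was at 10.3, 8.45 and 13.2 CPM in REC and 9.05, 8.75 and 9.75 CPM in SEC, while AT3G05165 rose. Of their stretches of 50 bases within single exons, 96.2% and 97.0% occur once in the genome. Reads from the rest could fall at more than 1 site and drop out of the counts. Stretches across splice junctions were not counted, so these shares do not cover spliced reads. Whether the fold changes of neighbours differ was not tested.

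**Figure D4:**
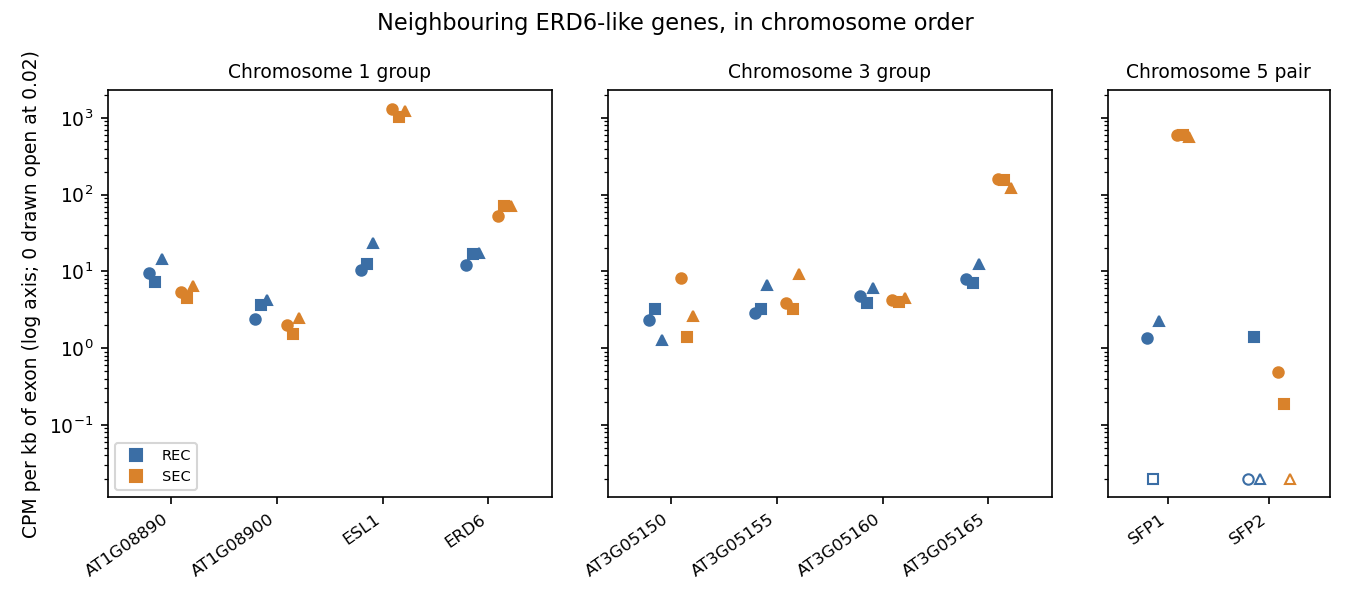
CPM per kb of exon on a log axis for neighbouring ERD6-like genes in chromosome order (REC blue, SEC orange; circle, square and triangle for replicates 1, 2 and 3; open symbols at 0.02 for 0 counts). ESL1, ERD6, AT3G05165 and SFP1 have SEC points above all their REC points. AT1G08890 has SEC points below all its REC points, and the other neighbours have overlapping values.

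The gene models also differ between the families. The 4 ERD6-like genes described here have 17 or 18 coding exons each and the 5 STP genes 3 or 4, with coding lengths of 1425 to 1581 bases and 1515 to 1581 bases. The 250 bases before the outermost annotated start are printed for the 3 genes that led in SEC. Those of SFP2 are added, since the tandem copies share coding sequence but not level. The windows are at chr5:9648258-9648507 (SFP1, plus strand), chr5:9656699-9656948 (SFP2, plus strand), chr1:2866953-2867202 (ESL1, plus strand) and chr5:9247541-9247790 (STP13, minus strand) of RefSeq's TAIR10.1. In each of these genes the RefSeq start lies upstream of the deposited one, for STP13 at 9247540 against 9247066. Windows before the deposited starts were not searched. Capitals mark TTGAC, the core of the W-box bound by WRKY factors, or its reverse complement GTCAA.
SFP1 upstream: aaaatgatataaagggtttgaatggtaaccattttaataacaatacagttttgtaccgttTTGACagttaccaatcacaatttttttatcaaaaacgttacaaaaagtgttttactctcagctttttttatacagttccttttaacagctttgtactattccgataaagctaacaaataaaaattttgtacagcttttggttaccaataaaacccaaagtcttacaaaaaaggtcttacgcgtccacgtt
SFP2 upstream: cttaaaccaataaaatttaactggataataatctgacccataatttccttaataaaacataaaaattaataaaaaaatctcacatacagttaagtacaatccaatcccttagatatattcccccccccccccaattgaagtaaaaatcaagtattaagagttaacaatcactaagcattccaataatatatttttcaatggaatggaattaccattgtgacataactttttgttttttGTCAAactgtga
ESL1 upstream: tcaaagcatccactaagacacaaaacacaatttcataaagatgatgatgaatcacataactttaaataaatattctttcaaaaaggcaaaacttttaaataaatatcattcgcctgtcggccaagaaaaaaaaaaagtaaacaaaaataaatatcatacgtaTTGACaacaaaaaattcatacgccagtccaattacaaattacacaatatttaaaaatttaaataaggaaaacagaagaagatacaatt
STP13 upstream: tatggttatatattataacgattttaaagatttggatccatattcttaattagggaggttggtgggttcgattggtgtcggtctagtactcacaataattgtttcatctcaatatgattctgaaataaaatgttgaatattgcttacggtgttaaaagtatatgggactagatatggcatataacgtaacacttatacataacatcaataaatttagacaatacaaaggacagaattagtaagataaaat

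Searched on both strands, TTGAC occurred once in each of the SFP1, SFP2 and ESL1 windows and not in that of STP13, in 5 of the 9 windows of the genes described, in 15 of the 33 windows of both families and in 44.9% of 27438 such windows of all genes. ACGTG, the core of the element of abscisic acid response, occurred in 3 of the 9 windows (SFP1, STP7 and STP14), against 22.9% of all. TATCCA, an element known from sugar-starved rice cells, occurred in 3 of the 9 (SFP2, STP1 and STP7), against 13.7% of all. No match overlapped another in the SFP1 and SFP2 windows. A match is a string of letters and not a shown binding site, and TTGAC was in the windows of both SFP1 and SFP2, ACGTG only in that of SFP1 and TATCCA only in that of SFP2.

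Among 10847 genes with a mean of at least 10 CPM, the gene whose log2 CPM was most like that of each fitted gene over the 6 libraries was AMC9 (AT5G04200, metacaspase-9) for SFP1, with a Pearson r of 0.9993. It was LKR/SDH (AT4G33150), of lysine breakdown, for ESL1 (0.9998), SPE1 (AT2G16500, arginine decarboxylase 1) for ERD6 (0.9993), and AT2G37750, of unknown function, for STP13 (0.9996). For STP7 it was DRT101 (AT5G18070; 0.9997), for STP1 APRL5 (AT3G03860; 0.9946) and for STP4 MNS2 (AT3G21160; 0.9706). The libraries fall into 2 groups that share depth and scaling, so r is given as a description, and nothing about shared function follows from it. A correlation of at least 0.99 was reached by 492 genes with ESL1, 166 with STP13, 57 with SFP1, 1 with STP1 and 0 with STP4. Within the families, AT3G05400 was most like STP13 (0.999) and AT3G05165 most like ESL1 (0.9963).

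Other monosaccharide carriers, which move sugars across the vacuole, plastid and plasma membranes, were mixed. Of 20 listed genes 16 were tested: 6 rose in SEC, 3 fell and 7 did not pass, beside 28.9% higher and 31.9% lower among all tested genes. Their median log2 fold change was 0.54. PGLCT, the plastid glucose translocator, rose from 95.4 ± 27.9 to 348 ± 28.8 CPM (SD, n = 3; log2 fold change 1.87, edgeR adjusted p = 0.000423), while AT5G59250, which encodes a putative plastid sugar carrier, fell from 29.0 ± 4.81 to 0.476 ± 0.14 CPM (-5.92, edgeR adjusted p = 2.26e-05). The polyol transporter gene AT2G18480 had 0 counts in REC and 5.59, 14.6 and 8.08 CPM in SEC, at least 171-fold higher (edgeR adjusted p = 0.000465). AT2G18480 had enough counts for the test only through SEC, and AT5G59250 only through REC. The vacuolar importer genes TMT1 and TMT2 were at 22.6 ± 12.7 and 17.4 ± 10.8 CPM in REC and 30.2 ± 4.33 and 6.1 ± 3.44 CPM in SEC, and neither was called (edgeR adjusted p = 0.456 and 0.0681).

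Genes of sucrose cleavage and sucrose transport moved both ways. Of 8 tested genes of sucrose cleavage, 5 were higher, 1 lower and 2 not called, and the median log2 fold change was 1.90, beside 28.9% higher and 31.9% lower among all tested genes. The cell wall invertase gene CWINV1 was at 75.8, 57.5 and 154 CPM in REC and 441, 631 and 595 CPM in SEC, without overlap, and rose by 2.54 ± 0.39 (SE; edgeR adjusted p = 0.000745). CWINV2, another cell wall invertase gene, is named with its values known. Its level was 3.72 ± 0.939 CPM in REC against 0.116 ± 0.145 CPM in SEC (SD, n = 3), and it fell by 4.95 on the log2 scale (edgeR adjusted p = 0.00494), with a log2 fold change of -6.36 when SEC replicate 3 was left out. The sucrose synthase genes SUS1 (391 ± 50.4 CPM in REC, 1962 ± 153 in SEC) and SUS3 (29.7 ± 6.99 in REC, 124 ± 15.6 in SEC) rose (SD, n = 3; log2 fold changes 2.33 and 2.06, edgeR adjusted p = 5.15e-05 and 0.000232). Of 7 tested sucrose transporter genes, 3 were higher, 1 lower and 3 not called, with a median of 1.13. SUC3 and SUC4 rose by 1.78 and 2.18 (edgeR adjusted p = 0.00151 and 0.00244), while SUC5, with 0 counts in SEC, was at least 41.4-fold lower there (edgeR adjusted p = 0.00215). Both CWINV2 and SUC5 had enough counts for the test only through REC. SUC2, which loads the phloem, was near 0 outside REC replicate 2, at 11.4 CPM there, and was not called.

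Hexose phosphorylation is the step that follows uptake. Of 9 tested genes, 1 rose, 2 fell and 6 were not called, and the median log2 fold change was -0.13, beside 60.8% called among all tested genes. The higher gene was the hexokinase and glucose sensor HXK1, at 65.0, 67.6 and 113 CPM in REC and 147, 176 and 181 CPM in SEC (1.03 ± 0.26, SE; edgeR adjusted p = 0.00942). With scaling by library size alone that call was lost (0.49, edgeR adjusted p = 0.125; all alternatives 0.000393 to 0.125). The plastid fructokinase gene FRK3 fell from 107 ± 28.8 to 2.25 ± 0.151 CPM (SD, n = 3; -5.57, edgeR adjusted p = 1.34e-05). HKL1, a hexokinase-like gene, fell by 1.46 on the log2 scale (edgeR adjusted p = 0.0162), but not without REC replicate 2 (-1.01, edgeR adjusted p = 0.0687) or SEC replicate 1 (-1.27, edgeR adjusted p = 0.0564; all alternatives 0.00364 to 0.0687).

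Genes of the sugar starvation response were listed with earlier results of these data known. The kinase gene SNRK1A (log2 fold change 0.26, edgeR adjusted p = 0.293) and SEN1 (0.07, edgeR adjusted p = 0.955) were not called. All 9 listed genes were tested, 7 were higher, none lower and these 2 not called, and the median log2 fold change was 2.56, beside 28.9% higher and 31.9% lower among all tested genes. TPS11 and TPS8, of the trehalose phosphate synthase family, rose to 888 ± 139 CPM (150.4 ± 9.63 in REC) and 244 ± 60.4 CPM (25.4 ± 6.0 in REC) (SD, n = 3; 2.56 and 3.26, edgeR adjusted p = 3.87e-05 and 4.89e-05), and the F-box gene KMD4 rose by 1.83 (edgeR adjusted p = 0.000564). Among genes of dehydration and abscisic acid response, the response for which ERD6 and ESL1 are known, the counts were equal. Of 13 tested, 5 were higher, 5 lower and 3 not called, with a median of -0.70. ERD1, of a chloroplast protease, rose by 4.29 ± 0.26 (SE; edgeR adjusted p = 1.51e-05) and ERD7 by 1.22 ± 0.18 (edgeR adjusted p = 0.000702), while RD22 fell by 8.42 on the log2 scale (edgeR adjusted p = 0.000132), its fold change being -7.81 without SEC replicate 2 and -10.62 without SEC replicate 3.

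**Figure D5:**
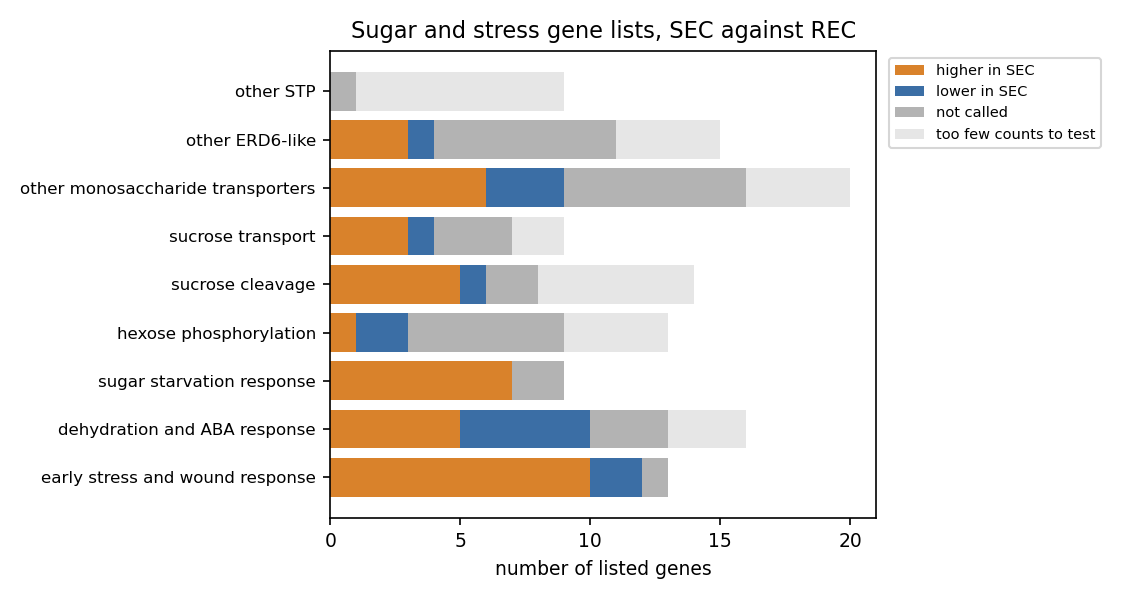
Number of listed genes that were higher in SEC, lower in SEC, not called or with too few counts to test, for the other genes of both transporter families and for 7 lists of sugar and stress genes. The sugar starvation list has 7 higher and 0 lower genes, and the dehydration list has 5 of each.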

How the data were processed

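Per the labels' protocols, RNA of sorted protoplasts was amplified with a low-input cDNA kit in 18 cycles and made into libraries with the TruSeq RNA kit. The values are raw counts of reads per gene, which the authors deposited unnormalized. The submitters' processing notes name TAIR10 as the genome build and, among other tools, Trimmomatic 0.32.3, the aligner TopHat2 2.0.9, Picard 1.119 and the counter HTSeq 0.6.1. Strand setting and annotation release: not given in the sources used here. Rows of the counter that name no gene stayed out of library sizes: 42.8% to 45.9% of a library's records lay in no feature, 6.86% to 11.8% at several sites, and 0.41% to 0.54% were ambiguous.

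Counts were fitted with edgeR 4.0.16 (filterByExpr by group, TMM factors, quasi-likelihood F test of SEC against REC, group as the only term, Benjamini-Hochberg adjustment over 17246 genes, threshold 0.05) in R 4.3.3. The SE is the log2 fold change over the root of F. Genes nearly absent from 1 group, such as SFP1, AT3G05400, AT2G18480, SUC5, RD22 and FDH, passed the filter only through the other group. For such genes the adjusted p is given as a description. The pipeline was tested on simulated counts in which few genes changed and as many rose as fell. That test does not cover scaling where most genes are called, as here. A fold against a group at 0 is a bound against 3 counts over the group, which covers counting error only. limma 3.58.1 and DESeq2 1.42.0 served as alternatives. Exon lengths, neighbours, sequences and motif searches came from RefSeq's TAIR10.1, whose nuclear chromosomes are those of TAIR10. Gene coordinates are the deposited ones, counted from 1.

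The genes described and all lists were chosen with earlier results of these data known. Named were the 9 genes, in each list up to 3 called genes with the smallest adjusted p (up to 2 for cell type markers), family genes with a mean of at least 10 CPM, and the gene most like each fitted gene by Pearson r of log2 CPM (prior count 2). Chosen after their values were seen were TMT1, TMT2, SUC2, CWINV2, IDA, HAE, HSL2, ADPG2, STP10, STP12, AT1G08900, AT1G54730, CPK34, MYB60, GORK, SLAC1, WRKY53 and TCH3. AHA3, APL, PP2-A1, SNRK1A and SEN1 were likewise named outside that rule, with their values known.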

Additional observations from a re-analysis of the deposited data

How the results depend on the processing

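The 16 alternatives changed the scaling (RLE, upper quartile, library size alone), the filter (none, or 10 CPM in 3 libraries), the tool (DESeq2, or voom with sample weights), the model (replicate block), the gene set (no organelle genes), the threshold (0.01) or left out 1 of the 6 libraries. The 9 genes were chosen with this contrast known, so how many stayed past the threshold says nothing about stability: 5 or 6 were higher and 0 lower. Over the alternatives the log2 fold change ran from 8.34 to 11.85 for SFP1, 5.73 to 6.72 for ESL1, 1.53 to 2.20 for ERD6, 2.95 to 4.54 for STP13, 1.82 to 2.99 for STP7, 0.77 to 1.79 for STP1 and -0.85 to 0.85 for STP4. Leaving out REC replicate 3 raised the fold changes of SFP1, STP7 and STP13 by more than 1.5-fold and turned that of STP4. Voom gave SFP1 a log2 fold change of 11.85, and the cause was not tested.

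Scaling moved the balance of all genes. With TMM 47.5% of calls were higher in SEC (4978 higher, 5499 lower), with library size alone 33.7% (3521 higher, 6925 lower), and the median log2 fold change went from -0.07 to -0.61, or to -0.31 with upper-quartile factors. With library size alone ESL1 was at 5.73 and ERD6 at 1.53. Among the other 24 family genes, the count lower in SEC was 1. It was 2 with RLE factors, with no filter, with at least 10 CPM, with DESeq2 and without organelle genes, 3 with upper-quartile factors and with voom, and 5 with library size alone, and 1 to 3 when single libraries were left out. AT1G08890 accounted for a call in 8 alternatives. The count higher in SEC was 3, and 4 with voom. Without division by length the SEC share of SFP1 was 15.7% (17.0% per length) and that of STP13 was 37.6% (33.5% per length).

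Same-numbered libraries did not deviate together (correlations -0.022, -0.01 and -0.016). The labels do not say whether they share plants or a sort, and these values cannot settle it. With the replicate block 4644 genes were higher and 4871 lower, 6 of the 9 genes were higher and 0 lower, and the other family genes had 3 higher and 1 lower. Groups of 3 amplified libraries limit all of this, and calls of genes with few counts most.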

Other observations

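Genes of early stress and wound response, stimuli to which STP4 and STP13 are known to respond, were listed with earlier results of these data known. All 13 were tested, 10 were higher, 2 lower and 1 not called, and the median log2 fold change was 2.95, beside 28.9% higher and 31.9% lower among all tested genes. PHI-1, a phosphate-induced gene, was at 13.4, 10.9 and 17.2 CPM in REC and at 1015, 1091 and 913 CPM in SEC replicates 1, 2 and 3 (log2 fold change 6.19 ± 0.28, SE; edgeR adjusted p = 1.17e-05). The zinc-finger genes ZAT10 (59.3 ± 12.8 CPM in REC, 1324 ± 323 in SEC) and ZAT12 (127 ± 32.8 in REC, 978 ± 88.5 in SEC) also rose (SD, n = 3; edgeR adjusted p = 1.84e-05 and 4.69e-05). In these 3 genes the groups did not overlap. The lower genes, named after their values were seen, were WRKY53, a transcription factor gene, and TCH3, a calmodulin-like gene, at 33.4 ± 23.4 and 287 ± 84.7 CPM in REC against 0.246 ± 0.233 and 71.4 ± 18.7 CPM in SEC (edgeR adjusted p = 0.000532 and 0.000799; the log2 fold change of WRKY53 went from -7.04 to -7.72 without SEC replicate 3). WRKY53 had enough counts for the test only through REC. The protoplasts were sorted before RNA was taken, in both groups, and the part of that handling in these levels was not tested.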
